A study of Mus musculus with 6 samples.

Results

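The genes described are 10 fatty acid elongases and desaturases (Elovl1, Elovl3, Elovl4, Elovl5, Elovl6, Elovl7, Fads1, Fads2, Scd1 and Scd2), taken by gene symbol from the 46517 genes of the deposited files. All 10 were measured and all 10 passed the filter on low counts. Long fatty acids are built in the endoplasmic reticulum by a cycle whose opening, rate-limiting step is carried out by an ELOVL elongase, each with its own preference for chain length and saturation. Stearoyl-CoA desaturases place a double bond in saturated chains to make oleate and palmitoleate, and the FADS front-end desaturases work with ELOVL5 to turn dietary linoleate and linolenate into longer polyunsaturated fatty acids. In skin these enzymes supply the wax esters and triglycerides of sebum, the very long chains of barrier ceramides and ordinary membrane lipids.

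RNA was sequenced from hair germ stem cells, the progenitors at the base of the resting follicle, sorted from back skin of mice 60 days old, 3 days after hair was pulled out to start a new growth phase. There were 3 groups of 2 libraries. LEF1_TCF7dKO mice (the double knockout) had the alleles Lef1fl/fl and Tcf7-/-, LEF1cKO mice had Lef1fl/fl only, and WT mice had neither. All 3 groups, WT included, carried Sox9-CreER, an inducible Cre in cells that use the Sox9 promoter, and its reporter R26-lox-stop-lox-YFP. The Tcf7 allele is not conditional, while the Lef1 allele depends on Cre activity. LEF1 and TCF7 are transcription factors that recruit beta-catenin to DNA in Wnt signalling. The sort used YFP with antibodies to P-cadherin, Sca-1, CD34 and integrin b1, and the label for sex reads Mixed in every sample. Whether the 2 libraries of a group came from different mice is not said in the labels. Each p-value sets a difference between groups only against the spread of these samples. That spread may be technical in the double knockout and WT, while the LEF1cKO libraries differ in sex-linked genes, as given below.

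Library totals ran from 40480694 to 63220022 expected counts, and the 10 genes had between 172 counts (Elovl3 in LEF1cKO replicate 1) and 131719 (Scd1 in double knockout replicate 1). Lef1 stood at 9.22 and 9.42 TPM (transcript level scaled for length and library total) in the double knockout, 13.5 and 8.37 TPM in LEF1cKO, and 21.4 and 20.4 TPM in WT; Tcf7 stood at 13.7 and 18.0 TPM in the double knockout, 29.3 and 27.8 TPM in LEF1cKO, and 26.9 and 36.0 TPM in WT. The labels do not say which exons the 2 alleles lack, so transcript left in the knockouts does not check the deletion. Cdh3, which encodes the P-cadherin of the gate, was at 65.9 and 85.9 TPM in the double knockout, 134 and 116 TPM in LEF1cKO, and 134 and 130.1 TPM in WT. Of the 4 genes of the gate, Cdh3 fell in the double knockout against WT and 2 rose. Ly6a (Sca-1) was at 111 and 97.3 TPM in the double knockout, against 26.5 and 14.7 TPM in WT. Cd34 was at 42.0 and 30.9 TPM in the double knockout, against 13.5 and 8.72 TPM in WT. In LEF1cKO, Ly6a was at 21.8 and 45.9 TPM and Cd34 at 11.3 and 17.8 TPM. LEF1cKO replicate 1 stood apart in sex-linked genes, with Xist at 0.66 TPM and Ddx3y at 38.8 TPM, against 309 to 380.0 TPM and 0.01 to 0.1 TPM in the other 5 libraries. That is the pattern of male cells, so the 2 LEF1cKO libraries came from different mice and differed in sex. The part of sex in the spread of the members was not tested. Genes of other cell types differed between the groups. Summed TPM of 10 suprabasal epidermis genes was 13596 and 12897 in the double knockout, 3289 and 3397 in LEF1cKO, and 1645 and 1337 in WT, and 9 of the 10 rose in the double knockout against WT. Fibroblast genes (6 of 6 rose), immune genes (5 of 6) and Schwann cell genes (4 of 4) were also higher in the double knockout than in WT, and 5 of 6 inner root sheath genes were lower. None of 5 melanocyte genes passed the test given below in either direction. Of all genes tested, 18.0% rose and 19.6% fell in this comparison. The sebaceous and adipocyte genes are given below, library by library, beside the members.

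Against WT, double knockout cells held more transcript of the elongases Elovl1, Elovl4, Elovl6 and Elovl7 and of the desaturase Scd1, and less of the desaturases Fads1, Fads2 and Scd2. The mean TPM of Elovl6 was 9.07 times, of Elovl4 7.62 times, of Scd1 6.26 times, of Elovl7 2.98 times and of Elovl1 1.93 times that of WT. The WT mean was 3.12 times that of the double knockout for Fads2, 1.98 times for Fads1 and 1.62 times for Scd2. In a test over all 19640 genes, 5 of the 10 members rose and 3 fell, where 18.0% of all genes rose and 19.6% fell (37.6% in all); Elovl3 and Elovl5 did not pass. The median log2 fold change was 1.10 over the 10 members and 0.01 over all genes tested. In sorted bulk RNA, fewer cells of a type and less RNA per cell cannot be told apart.

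**Figure D1:**
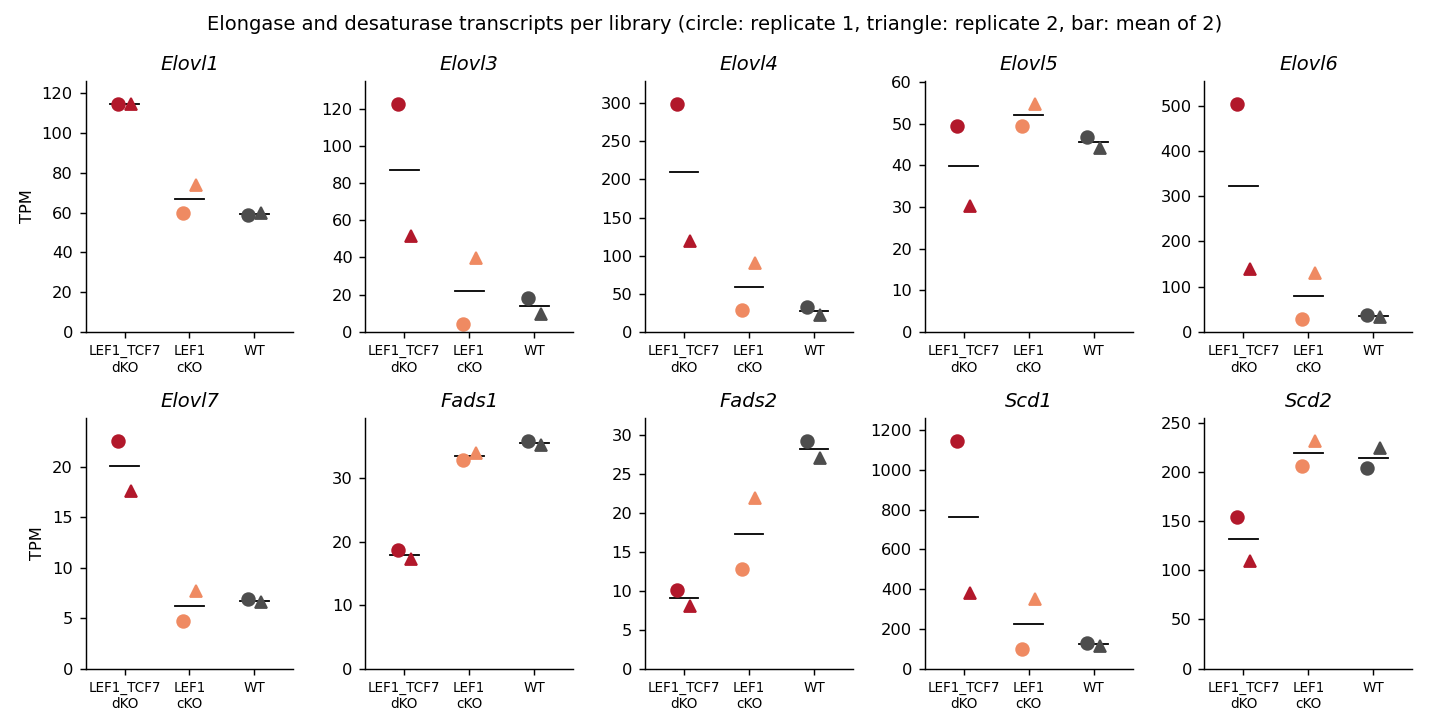
Transcript level (TPM, linear axes from 0) of each of the 10 genes in every library, with LEF1_TCF7dKO, LEF1cKO and WT from left to right, replicate 1 as a circle, replicate 2 as a triangle and the mean of 2 as a bar. Elovl1, Fads1 and Fads2 sit in tight pairs in the double knockout, while Elovl3, Elovl4, Elovl6 and Scd1 are spread widely in both knockout groups, for example Elovl6 at 504 and 139 TPM in the double knockout, 28.0 and 131 TPM in LEF1cKO, and 37.9 and 33.0 TPM in WT.

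The elongases are scattered over the genome, and positions are given for the mm10 build from GENCODE M21. Elovl1 lies at chr4:118428093-118432953 (plus strand), Elovl3 at chr19:46131897-46135694 (plus), Elovl4 at chr9:83778692-83806277 (minus), Elovl5 at chr9:77917364-77984519 (plus), Elovl6 at chr3:129532355-129638495 (plus) and Elovl7 at chr13:108214404-108285683 (plus). The 4 desaturases all lie on chromosome 19 as 2 pairs of opposite strand: Fads2 at chr19:10062765-10101746 (minus) and Fads1 at chr19:10182888-10196877 (plus), 81141 bases apart, and Scd2 at chr19:44293674-44306864 (plus) and Scd1 at chr19:44394455-44407879 (minus), 87590 bases apart with Scd4 between them. The promoters below are those of the 3 elongases with the largest rises that passed the test, printed because LEF1 and TCF7 bind DNA. They are RefSeq sequences (GRCm38.p6), read 5' to 3' on the strand of the gene. Each begins 250 bases before the RefSeq start and ends before both the RefSeq and the GENCODE start, which leaves 219 bases for Elovl6, whose GENCODE start is the earlier one. The positions are chr9:83806306-83806555 (minus) for Elovl4, chr3:129532136-129532354 (plus) for Elovl6 and chr13:108214154-108214403 (plus) for Elovl7. Capitals mark the matches to the motifs searched.
Elovl4: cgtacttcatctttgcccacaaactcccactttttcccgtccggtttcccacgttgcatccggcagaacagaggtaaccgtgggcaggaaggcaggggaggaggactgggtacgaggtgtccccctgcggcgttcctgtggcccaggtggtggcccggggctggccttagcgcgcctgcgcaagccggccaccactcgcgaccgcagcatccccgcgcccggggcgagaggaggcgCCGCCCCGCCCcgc
Elovl6: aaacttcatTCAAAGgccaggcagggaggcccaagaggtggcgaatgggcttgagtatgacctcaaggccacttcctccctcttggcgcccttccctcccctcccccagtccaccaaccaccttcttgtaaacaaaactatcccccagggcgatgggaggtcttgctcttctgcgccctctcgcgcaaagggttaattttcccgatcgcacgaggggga
Elovl7: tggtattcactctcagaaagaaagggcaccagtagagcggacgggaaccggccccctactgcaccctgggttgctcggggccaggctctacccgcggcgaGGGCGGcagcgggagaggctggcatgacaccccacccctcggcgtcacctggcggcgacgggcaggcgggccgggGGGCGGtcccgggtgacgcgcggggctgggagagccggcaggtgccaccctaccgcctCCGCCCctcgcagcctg

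Both strands were searched in the full 250 bases before the RefSeq start, for these genes as for all windows. The capitals in Elovl6 are its only match, TCAAAG, the reverse complement of the TCF/LEF core CTTTGA, 241 to 236 bases before the RefSeq start. That core was in 13.8% of 32851 promoter windows of this length. The capitals in Elovl4 and Elovl7 are GC boxes (GGGCGG or CCGCCC), a motif in 32.7% of windows, and in Elovl4 the 2 matches share a base. The NF-Y motif CCAAT (33.8% of windows), the E-box CACGTG (6.02%) and the sterol regulatory element TCACNCCAC (1.05%) had no match in these 3 promoters. The table held promoters of 6 of the 10 members, and a match of letters is a description only.

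ELOVL6 extends palmitate to stearate and so stands at the entry to all longer saturated chains. Elovl6 was measured at 504 and 139 TPM in the double knockout, against 37.9 and 33.0 TPM in WT. Both double knockout libraries were above both WT libraries, but replicate 1 was 3.62 times replicate 2. The log2 fold change was 3.07 ± 0.84 (SE), the largest of the 10 genes in this comparison, with an adjusted p of 0.0331 (edgeR's quasi-likelihood test with Benjamini-Hochberg adjustment over all genes tested, here and below). The call was lost without double knockout replicate 1 (log2 fold change 1.91), without WT replicate 1 (3.18) and without WT replicate 2 (2.97). Fits without a double knockout or WT library leave 1 in that group. They also called fewer of all genes in this comparison, which holds for the lost calls below too. A processed pseudogene, Gm11295, matches Elovl6 at 97.4% over 805 bases and was listed at 0 in every library.

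ELOVL4 makes the ultra-long chains of the acylceramides that seal the epidermal barrier. Elovl4 was at 299 and 119.9 TPM in the double knockout, against 33.1 and 21.9 TPM in WT. The groups did not overlap, and within the double knockout replicate 1 was again the higher library. Elovl4 rose by 2.78 ± 0.63 on the log2 scale (adjusted p = 0.0188). The call was lost without double knockout replicate 1 (log2 fold change 2.03), WT replicate 1 (3.12) or WT replicate 2 (2.51).

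ELOVL7 and ELOVL1 lengthen saturated acyl chains to very long ones, which in the case of ELOVL1 go largely into sphingolipids. Elovl7 had 22.6 and 17.6 TPM in the double knockout, against 6.89 and 6.58 TPM in WT. Elovl1 had 115 and 114 TPM in the double knockout, against 58.8 and 59.9 TPM in WT. For both genes the gap between the groups was wider than the spread within them, and the 2 double knockout libraries of Elovl1 were nearly equal. Elovl7 rose by 1.43 ± 0.22 (adjusted p = 0.00646) and Elovl1 by 0.77 ± 0.10 (adjusted p = 0.00454) on the log2 scale. Both kept the call with any 1 of the 6 libraries left out, with a highest adjusted p of 0.0474 for Elovl7 and 0.047 for Elovl1. The suprabasal genes above summed to 13596 and 12897 TPM in the double knockout. Their sum was 3289 and 3397 TPM in LEF1cKO and 1645 and 1337 TPM in WT. In LEF1cKO, Elovl1 was at 60.03 and 74.1 TPM and Elovl7 at 4.73 and 7.69 TPM. The part of suprabasal cells in the rises of Elovl1 and Elovl7 was not tested. Elovl1 and Cdc20 share 53 exon bases on opposite strands, and the labels do not say whether counting used strand, so reads of those bases could belong to either gene.

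ELOVL3 makes saturated and monounsaturated very long chains and is best known in mice from sebaceous glands and brown fat. Elovl3 was at 123 and 51.4 TPM in the double knockout, against 18.1 and 9.61 TPM in WT. The libraries did not overlap, yet the log2 fold change of 2.51 ± 0.99 did not pass (adjusted p = 0.0923). It passed without either LEF1cKO library (adjusted p = 0.0153 without replicate 1 and 0.0152 without replicate 2), when only the 2 groups compared were fitted (0.0147) and with no filter on low counts (0.0214).

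ELOVL5 lengthens polyunsaturated chains. Elovl5 was at 49.4 and 30.1 TPM in the double knockout, against 46.8 and 44.1 TPM in WT. Replicate 1 of the double knockout lay above both WT libraries and replicate 2 below both; the libraries of the other 9 members did not overlap, as was the case for 74.1% of all genes tested. Its log2 fold change was -0.34 ± 0.21 (adjusted p = 0.249). Without double knockout replicate 1 it was -0.69 and passed (adjusted p = 0.0339).

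Of the desaturases, SCD1 turns stearate into oleate and palmitate into palmitoleate and is needed for mouse sebaceous glands, while SCD2 is a second stearoyl-CoA desaturase. Scd1 was at 1148 and 379 TPM in the double knockout, against 129 and 115 TPM in WT. Scd2 was at 155 and 109.5 TPM in the double knockout, against 204 and 225 TPM in WT. Neither gene overlapped between the groups, and the 2 genes differed in opposite directions. Scd1 rose by 2.50 ± 0.71 on the log2 scale (adjusted p = 0.0363), and Scd2 fell by 0.84 ± 0.18 (adjusted p = 0.0145). The ratio of Scd1 to Scd2 in TPM was 7.43 and 3.46 in the double knockout, 0.466 and 1.51 in LEF1cKO, and 0.632 and 0.511 in WT. Scd2 was the higher of the 2 in both WT libraries and in LEF1cKO replicate 1, and Scd1 in the other 3.

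Both Scd calls were lost in some fits. Scd1 lost its call without double knockout replicate 1 (log2 fold change 1.54), WT replicate 1 (2.59) or WT replicate 2 (2.42). It also did not pass by limma on log2(TPM + 1) (adjusted p = 0.0512). Scd2 lost its call without WT replicate 1 (-0.90) or WT replicate 2 (-0.76). The values without a WT library lay near those of the full fit. The 2 transcripts match at 94.7% over 624 bases, and Scd1 matches Scd3 at 91.4% over 1053 bases, so the authors' counting could split reads between these copies and the single-gene values are uncertain to that extent. With the counts of Scd1, Scd2, Scd3 and Scd4 summed, the log2 fold change was 1.18 ± 0.47 and did not pass (adjusted p = 0.0955).

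FADS2 is the entry desaturase of polyunsaturated fatty acid synthesis, and FADS1 acts after it on the elongated product. Fads2 was at 10.1 and 7.97 TPM in the double knockout, against 29.2 and 27.1 TPM in WT. Fads1 was at 18.6 and 17.3 TPM in the double knockout, against 36.0 and 35.2 TPM in WT. Both genes were lower in each double knockout library than in each WT library, with little spread in either group. Fads2 fell by 1.78 ± 0.25 (adjusted p = 0.00553) and Fads1 by 1.12 ± 0.09 (adjusted p = 0.00228) on the log2 scale, and both kept the call with any 1 library left out, with a highest adjusted p of 0.0376 for Fads2 and 0.0237 for Fads1. In the same comparison, of 9 hair germ and basal genes, 4 fell (Lhx2, Lgr5, Cdh3 and Sox9) and 3 rose (Krt14, Krt15 and Itga6). Of all genes, 18.0% rose and 19.6% fell. Lhx2 was at 114 and 198 TPM in the double knockout, against 337 and 381 TPM in WT. Krt15 was at 1438 and 2310 TPM in the double knockout, against 760 and 745 TPM in WT. The part of the hair germ cells' share in the falls of Fads1, Fads2 and Scd2 was not tested. With Fads1, Fads2 and Fads3 summed the fall was 1.17 ± 0.10 (adjusted p = 0.0025).

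**Figure D2:**
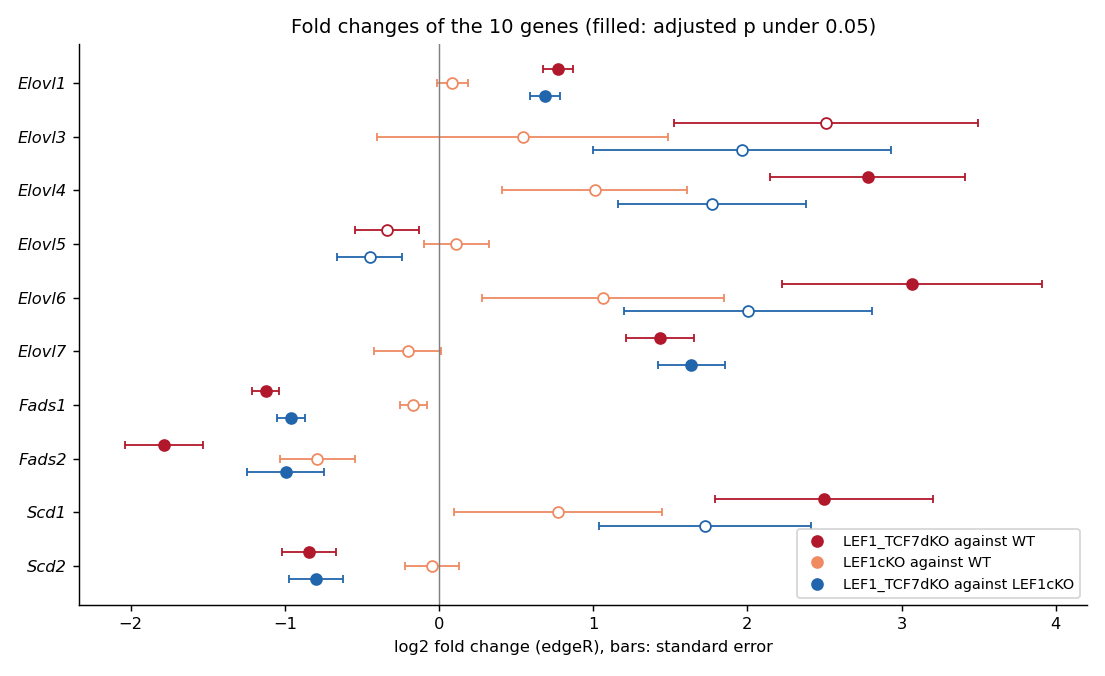
Log2 fold change (edgeR) of each gene with its standard error as a bar, for LEF1_TCF7dKO against WT (red), LEF1cKO against WT (orange) and LEF1_TCF7dKO against LEF1cKO (blue); filled points have an adjusted p under 0.05. In the double knockout against WT 8 of the 10 points are filled, none is filled for LEF1cKO against WT, and the widest bars belong to Elovl3 (SE 0.99) and Elovl6 (SE 0.84).

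**Figure D3:**
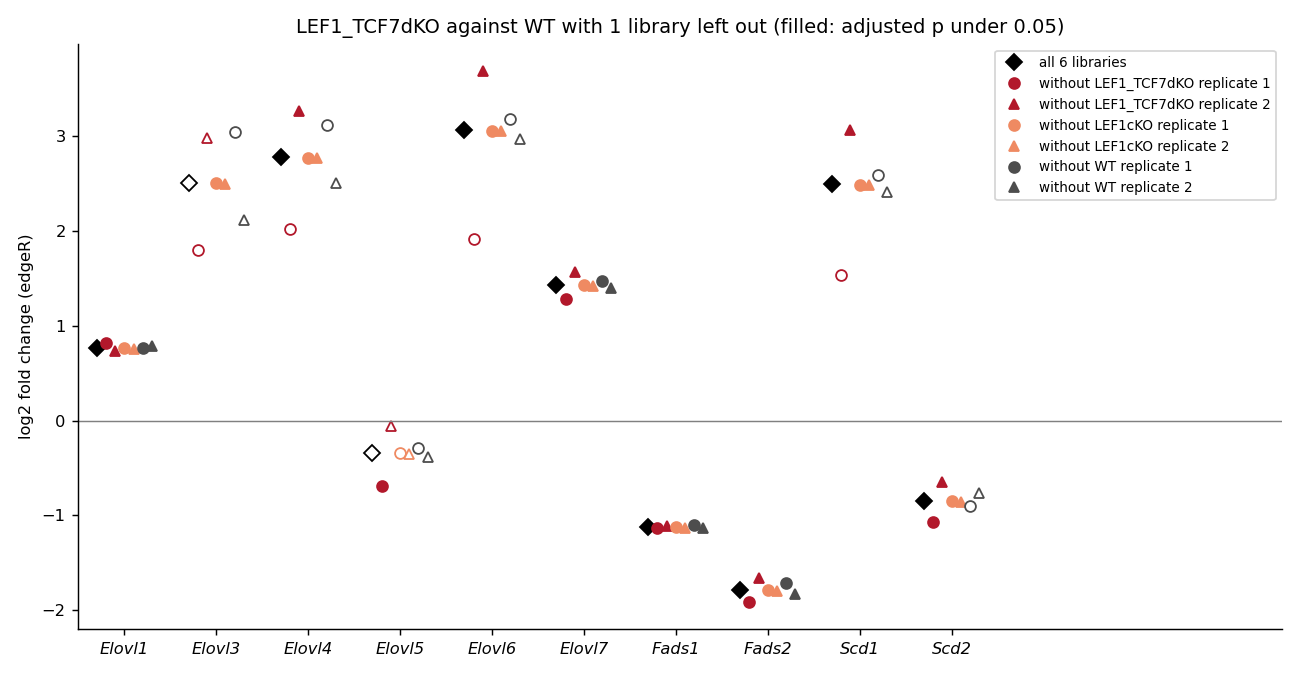
Log2 fold change (edgeR, vertical axis) of LEF1_TCF7dKO against WT with all 6 libraries (black) and with 1 library left out (coloured by its group, circle for replicate 1 and triangle for replicate 2); filled points have an adjusted p under 0.05. Elovl1, Elovl7, Fads1 and Fads2 stay filled throughout, while Elovl6 moves between 1.91 and 3.69 and Scd1 between 1.54 and 3.06.

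Set against LEF1cKO, the double knockout had more Elovl1 and Elovl7 and less Fads1, Fads2 and Scd2. These 2 rises and 3 falls among the 10 members stood beside 11.2% of all genes that rose and 14.1% that fell (25.2% in all). The member median was 1.16 on the log2 scale, against 0.01 over all genes. This comparison shares its double knockout libraries with the one above. Elovl7 had 22.6 and 17.6 TPM in the double knockout, against 4.73 and 7.69 TPM in LEF1cKO, and rose by 1.64 ± 0.22 (adjusted p = 0.0113). Elovl1 had 115 and 114 TPM in the double knockout, against 60.03 and 74.1 TPM in LEF1cKO, and rose by 0.68 ± 0.10 (adjusted p = 0.0121). In both genes the double knockout libraries were the 2 highest.

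Fads1 had 18.6 and 17.3 TPM in the double knockout, against 32.9 and 34.0 TPM in LEF1cKO, and fell by 0.96 ± 0.09 (adjusted p = 0.0107). Fads2 had 10.1 and 7.97 TPM in the double knockout, against 12.7 and 21.9 TPM in LEF1cKO, and fell by 0.99 ± 0.25 (adjusted p = 0.0355). Scd2 had 155 and 109.5 TPM in the double knockout, against 206 and 232 TPM in LEF1cKO, and fell by 0.80 ± 0.18 (adjusted p = 0.0264). All 3 were lower in each double knockout library than in each LEF1cKO library, by the narrowest margin for Fads2. Without double knockout replicate 1 none of the 5 calls passed, with adjusted p of 0.078 for Elovl1, 0.078 for Elovl7, 0.0777 for Fads1, 0.116 for Fads2 and 0.0777 for Scd2, in a fit that called 1 gene of all those tested. The Fads2 call was also lost without double knockout replicate 2 (adjusted p = 0.131), WT replicate 1 (0.0758) or WT replicate 2 (0.0755). Scd2 was also lost without double knockout replicate 2 (adjusted p = 0.063), LEF1cKO replicate 1 (0.0679), WT replicate 1 (0.0609) or WT replicate 2 (0.0571). When only these 2 groups were fitted, the adjusted p was 0.0740 for Fads2 and 0.0553 for Scd2. Fads2 also missed the threshold with library size as the only scaling (0.0539) and by limma on log2(TPM + 1) (0.0692) and log2(TPM + 0.1) (0.0663).

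The remaining 5 genes did not pass between the knockouts. Log2 fold changes were 2.0 ± 0.81 for Elovl6, 1.96 ± 0.96 for Elovl3, 1.77 ± 0.61 for Elovl4, 1.72 ± 0.69 for Scd1 and -0.45 ± 0.21 for Elovl5, with adjusted p from 0.0786 to 0.176. The double knockout libraries were both above both LEF1cKO libraries for the 4 with positive values, and overlapped them for Elovl5. In all, 9 of the 10 members did not overlap between the knockouts, against 64.3% of all genes tested. Without LEF1cKO replicate 2, the same 4 genes passed: Elovl3 at 4.32 (adjusted p = 0.0151), Elovl6 at 3.41 (0.0349), Scd1 at 2.86 (0.0353) and Elovl4 at 2.73 (0.0303). With no filter on low counts Elovl4 (adjusted p = 0.016), Elovl6 (0.0317) and Scd1 (0.0314) passed.

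In LEF1cKO against WT, 0 of the 10 members passed edgeR's test, where 0.224% of all genes rose and 0.377% fell (0.601% in all). DESeq2 also called 0 of them, and 1 (Fads2) had an unadjusted p under 0.05. The member median was 0.10 on the log2 scale, against 0.01 over all genes. This comparison shares the WT libraries with that of the double knockout. Fads2 was at 12.7 and 21.9 TPM in LEF1cKO, against 29.2 and 27.1 TPM in WT, with a log2 fold change of -0.79 ± 0.24 (adjusted p = 0.357). Fads1 was at 32.9 and 34.0 TPM in LEF1cKO, against 36.0 and 35.2 TPM in WT (-0.17 ± 0.09, adjusted p = 0.656). Both Fads genes had their 2 LEF1cKO libraries below their 2 WT libraries. Elovl1 and Elovl5 had both LEF1cKO libraries above both WT libraries, with log2 fold changes of 0.09 ± 0.10 (adjusted p = 0.872) and 0.11 ± 0.21 (adjusted p = 0.936). So 4 of the 10 members did not overlap between these groups, which is near the 41.7% of all genes tested that did not.

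The other 6 members overlapped between LEF1cKO and WT, and for Elovl3, Elovl4, Elovl6 and Scd1 the LEF1cKO libraries lay over 3 times apart. Elovl6 was at 28.0 and 131 TPM in LEF1cKO, against 37.9 and 33.0 TPM in WT, with a log2 fold change of 1.06 ± 0.79 (adjusted p = 0.764). Scd1 was at 96.1 and 351 TPM in LEF1cKO, against 129 and 115 TPM in WT (0.77 ± 0.67, adjusted p = 0.813). LEF1cKO replicate 1 was the lowest and replicate 2 the highest of the 4 libraries for both genes, and likewise for Elovl3 (3.97 and 39.5 TPM in LEF1cKO, against 18.1 and 9.61 TPM in WT) and Elovl7. Without LEF1cKO replicate 2 the log2 fold change turned to -1.83 for Elovl3, -0.35 for Elovl6 and -0.37 for Scd1, and without LEF1cKO replicate 1 that of Elovl7 turned to 0.07, none of them past the test. Elovl4 was at 28.8 and 89.7 TPM in LEF1cKO, against 33.1 and 21.9 TPM in WT (1.01 ± 0.60, adjusted p = 0.695). Scd2 was at 206 and 232 TPM in LEF1cKO, against 204 and 225 TPM in WT (-0.05 ± 0.17, adjusted p = 0.974).

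The 10 genes thus differed in how far apart the libraries of 1 group lay. In the double knockout the higher library was 3.62 times the lower for Elovl6, 3.03 times for Scd1, 2.50 times for Elovl4 and 2.39 times for Elovl3, but 1.0 times for Elovl1, 1.08 times for Fads1, 1.26 times for Fads2 and 1.29 times for Elovl7. In LEF1cKO it was 9.96 times for Elovl3, 4.67 times for Elovl6, 3.66 times for Scd1 and 3.11 times for Elovl4. In WT it was 1.88 times for Elovl3, 1.51 times for Elovl4 and at most 1.15 times for the other 8. Replicate 1 was the higher double knockout library, and replicate 2 the higher LEF1cKO library, for each of the 10 genes.

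Elovl3, Elovl6, Elovl7 and Scd1 ranked the 6 libraries in 1 order, with double knockout replicate 1 highest, then double knockout replicate 2, LEF1cKO replicate 2, WT replicate 1, WT replicate 2 and LEF1cKO replicate 1. Elovl4 differed from it only in the last 2 places. Of 10 sebaceous gland genes, 6 had exactly this order (Mc5r, Cidea, Awat1, Far2, Mgst1 and Soat1), all 10 were highest in double knockout replicate 1, and 9 were lowest in LEF1cKO replicate 1. Some genes of the pathway lists below also had this order, among them Hacd2, Slc27a4, Acsl5, Ppara and Pparg. Which cells their transcripts came from was not tested. How many of all genes share the order was not counted. Sebaceous genes summed to 2591 and 1333 TPM in the double knockout, 260.3 and 955 TPM in LEF1cKO, and 865 and 756 TPM in WT. Krt79 alone held most of that sum in every library. It was at 1727 and 963 TPM in the double knockout, 191 and 645 TPM in LEF1cKO, and 688 and 622 TPM in WT. Of the 9 sebaceous genes tested, 2 rose in the double knockout against WT, where 18.0% of all genes rose. Their median log2 fold change there was 1.91, against 0.01 over all genes tested. None of the defining sebaceous genes was at 0: Mc5r, a melanocortin receptor of sebocytes, was at 8.78 and 2.88 TPM in the double knockout, 0.24 and 2.56 TPM in LEF1cKO, and 1.81 and 0.99 TPM in WT. The wax synthase gene Awat1 was at 19.3 and 9.07 TPM in the double knockout, 1.12 and 7.51 TPM in LEF1cKO, and 5.56 and 3.18 TPM in WT. The part of sebaceous cells in the levels of Elovl3, Elovl4, Elovl6, Elovl7 and Scd1 was not tested.

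Adipocyte genes followed another order. Their summed TPM (8 genes) was 289 and 6.59 in the double knockout, 11.1 and 5.86 in LEF1cKO, and 6.64 and 5.32 in WT, and 1 of the 5 tested rose in the double knockout. The fat cell hormone gene Adipoq was at 14.4 and 0.06 TPM in the double knockout, 0.03 TPM and 0 in LEF1cKO, and 0.16 and 0.33 TPM in WT, and Lep was at most 0.17 TPM in any library. The adipocyte sum was highest in double knockout replicate 1 by a wide margin. In double knockout replicate 2, Adipoq and Plin1 were at 0.06 and 0.04 TPM. That library had Elovl6 at 139 TPM, Scd1 at 379 TPM, Elovl4 at 119.9 TPM and Elovl3 at 51.4 TPM, each above both WT libraries. The part of adipocytes in the levels of double knockout replicate 1 was not tested.

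**Figure D4:**
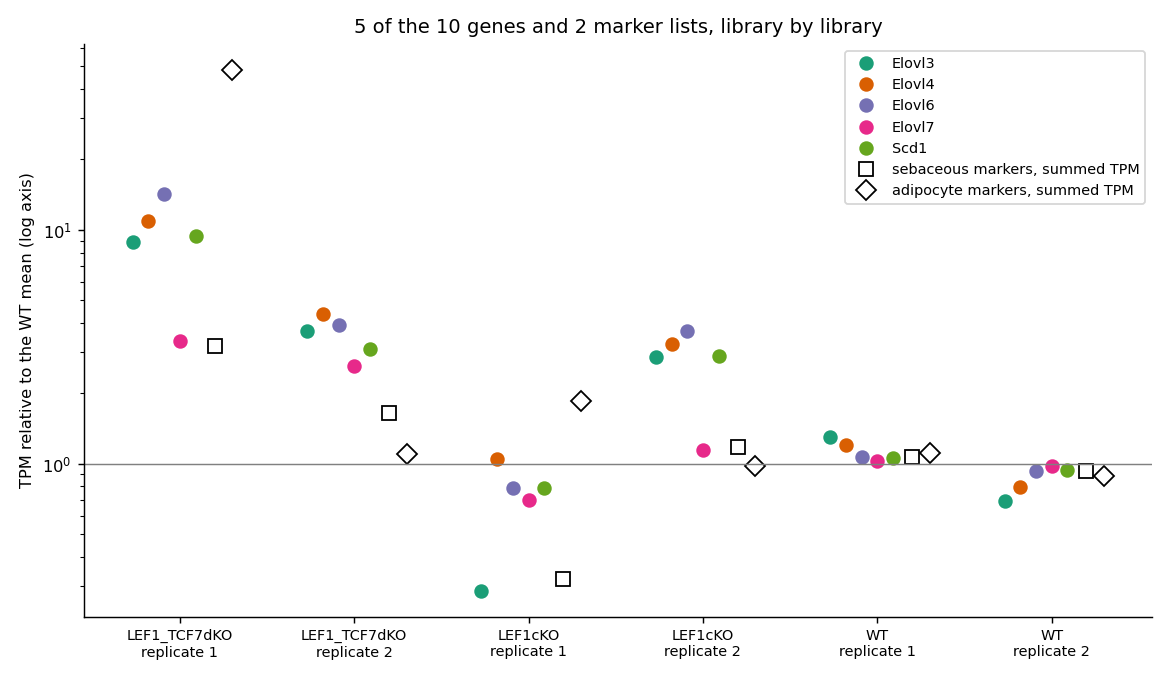
TPM of 5 members (coloured circles) and summed TPM of the sebaceous (open squares) and adipocyte (open diamonds) gene lists in each library, each divided by its WT mean, on a log axis; the line marks the WT mean. The members and the sebaceous list are highest in double knockout replicate 1 and most are lowest in LEF1cKO replicate 1, while the adipocyte list is far above the line in double knockout replicate 1 (289 summed TPM) and between 5.32 and 11.1 summed TPM elsewhere. Krt79 alone holds most of the sebaceous sum in every library.

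On the TPM scale, which corrects for transcript length, the order of the 10 genes differed between the groups. In the double knockout Scd1 led with a mean of 763 ± 544 TPM (SD, n = 2), then Elovl6 (322 ± 258 TPM), Elovl4 (209.6 ± 127 TPM), Scd2 (132 ± 31.8 TPM), Elovl1 (115 ± 0.219 TPM) and Elovl3 (87.0 ± 50.4 TPM). The libraries of these 6 neighbours in the order overlapped, and the levels below were separate at the steps to Elovl5 (39.8 TPM) and Elovl7 (20.1 TPM), while Elovl7 overlapped Fads1 (18.0 TPM) and Fads1 lay apart from Fads2 (9.03 TPM). In LEF1cKO, Scd1 (224 ± 180.5 TPM) and Scd2 (219 ± 18.2 TPM) overlapped at the top, and Elovl7 was lowest (6.21 TPM). In WT, Scd2 led (214 ± 15.1 TPM), followed by Scd1 (122 ± 9.72 TPM), Elovl1 (59.4 TPM), Elovl5 (45.5 TPM), Fads1 (35.6 TPM), Elovl6 (35.5 TPM), Fads2 (28.1 TPM), Elovl4 (27.5 TPM), Elovl3 (13.8 TPM) and Elovl7 (6.74 TPM). There the neighbours that overlapped were Fads1 with Elovl6 and Fads2 with Elovl4.

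Summed over the 10 genes the level was 2445 and 986 TPM in the double knockout, 523 and 1036.0 TPM in LEF1cKO, and 599 and 577 TPM in WT. Scd1 made up 47.0% and 38.4% of that sum in the double knockout, 18.4% and 33.9% in LEF1cKO, and 21.5% and 19.9% in WT. Scd2 made up 6.32% and 11.1% in the double knockout, 39.4% and 22.4% in LEF1cKO, and 34.0% and 39.0% in WT. The ratio of Elovl6, which acts on saturated chains, to Elovl5, which acts on polyunsaturated ones, was 10.2 and 4.62 in the double knockout, 0.567 and 2.39 in LEF1cKO, and 0.81 and 0.749 in WT. Double knockout replicate 1 and LEF1cKO replicate 1 were the extremes of the sum and of this ratio.

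The enzymes around the 10 genes were taken as 7 lists, and values below are for the double knockout against WT. There 18.0% of all genes rose and 19.6% fell (37.6% in all), the share to set beside each count of calls. For several lists the count was near or below that share. Of 6 elongation cycle partners, which complete the cycle after the ELOVL step, 2 rose and 1 fell, with a median of 0.50 on the log2 scale. The dehydratase gene Hacd4 rose by 2.30 ± 0.39 (adjusted p = 0.00792), at low levels of 1.88 TPM in the double knockout and 0.38 TPM in WT. Hacd2 rose by 1.2 ± 0.35 (adjusted p = 0.0393) and Hacd1 fell by 0.77 ± 0.23 (adjusted p = 0.041). The Hacd2 call was lost without double knockout replicate 1, WT replicate 1 or WT replicate 2 (adjusted p of up to 0.177), that of Hacd1 without any 1 of the double knockout and WT libraries (up to 0.231), and that of Hacd4 without WT replicate 2 (0.0601).

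Of 7 other members of the families, Degs1, which places the double bond in ceramide, rose by 0.76 ± 0.11 (adjusted p = 0.0058; 107 TPM in the double knockout and 58.4 TPM in WT), and Degs2 fell by 0.97 ± 0.18 (adjusted p = 0.0102). Degs1 was lost without WT replicate 2 (adjusted p = 0.0609) and Degs2 without WT replicate 1 (0.0814) or WT replicate 2 (0.0792). None of the 4 genes that supply electrons to the desaturases passed. Their most abundant genes were Cyb5a, which encodes cytochrome b5 (263 TPM in the double knockout and 268 TPM in WT; -0.16 ± 0.11, adjusted p = 0.313), and the reductase gene Cyb5r3 (188 TPM in the double knockout and 140.2 TPM in WT; 0.18 ± 0.14, adjusted p = 0.366).

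Of 7 genes of de novo fatty acid synthesis, Acacb, an acetyl-CoA carboxylase, rose by 3.62 ± 0.87 (adjusted p = 0.0221; 28.0 TPM in the double knockout and 2.27 TPM in WT). It was lost without double knockout replicate 1 (2.59, adjusted p = 0.105), WT replicate 1 (0.102) or WT replicate 2 (0.108). Fasn, the synthase that makes palmitate, was named after its values were seen, since palmitate is what ELOVL6 extends. Fasn was at 306 and 155 TPM in the double knockout, against 89.4 and 100.3 TPM in WT, and did not pass (1.10 ± 0.35, adjusted p = 0.0522). Of 13 tested lipogenic regulators, 2 rose: Srebf1, a transcription factor gene of lipid synthesis, by 0.70 ± 0.20 (adjusted p = 0.0348), and Scap, which encodes the escort protein of its product, by 0.41 ± 0.11 (adjusted p = 0.0325). Both were lost without double knockout replicate 1 (adjusted p of 0.124 for Srebf1 and 0.118 for Scap), without WT replicate 1 (0.164 and 0.215) and without WT replicate 2 (0.12 and 0.134).

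Acyl-CoA synthetases, which activate fatty acids for every later step, had the most calls, with 4 rises and 1 fall among 7 tested and a median of 1.14. Acsl1 was at 79.0 and 62.6 TPM in the double knockout, against 10.7 and 10.6 TPM in WT. It rose by 2.48 ± 0.19 (adjusted p = 0.00207) and kept the call with any 1 library left out. Slc27a4, a fatty acid transporter gene of the epidermis, rose by 2.25 ± 0.53 (adjusted p = 0.0204), Slc27a3 rose by 1.14 ± 0.23 (adjusted p = 0.0126) and Acsl3 fell by 1.27 ± 0.26 (adjusted p = 0.0131). The other rise, Acsl5 at 1.17 ± 0.36 (adjusted p = 0.0484), was named after its values were seen. Each of these 4 was lost without WT replicate 1 and without WT replicate 2. Slc27a4, Acsl5 and Acsl3 were also lost without double knockout replicate 1, and Slc27a3 and Acsl3 without double knockout replicate 2. The adjusted p reached 0.107 for Slc27a4, 0.0746 for Slc27a3, 0.0757 for Acsl3 and 0.224 for Acsl5.

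Ceramide synthases join fatty acids of a given length to the sphingoid base, and 2 of 6 rose and 1 fell. Cers3, which uses the ultra-long chains that ELOVL4 makes, rose by 0.81 ± 0.15 (adjusted p = 0.00997), Cers6 rose by 0.47 ± 0.10 (adjusted p = 0.0153) and Cers2 fell by 0.44 ± 0.11 (adjusted p = 0.0246). All 3 were lost without WT replicate 1 and without WT replicate 2, Cers3 and Cers2 also without double knockout replicate 1, and Cers6 and Cers2 without double knockout replicate 2, with adjusted p of up to 0.0844 for Cers3, 0.145 for Cers6 and 0.196 for Cers2. By limma on log2(TPM + 1), Hacd2 (adjusted p = 0.0525), Degs2 (0.104), Srebf1 (0.0672), Acsl5 (0.0601) and Cers2 (0.0607) did not pass, nor did Hacd1 with library size as the only scaling (0.0589). In LEF1cKO against WT no gene of the 7 lists passed. Between the knockouts, 2 other family members, 2 acyl-CoA synthetases and no other listed gene rose, and 1 other family member, 1 acyl-CoA synthetase and 1 ceramide synthase fell. Of all genes, 11.2% rose and 14.1% fell there.

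**Figure D5:**
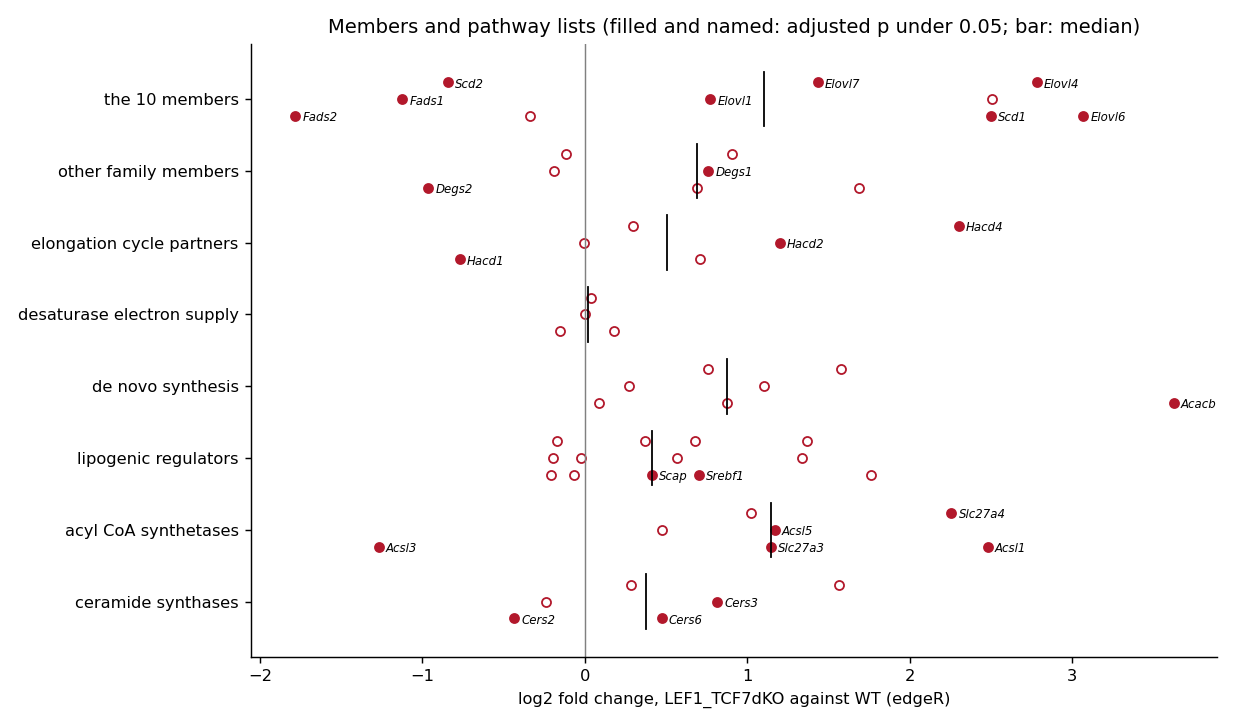
Log2 fold change (edgeR) of LEF1_TCF7dKO against WT for the 10 members and for 7 lists of pathway genes, 1 circle per tested gene, filled and named where the adjusted p is under 0.05, with the list median as a bar. The members (median 1.10) and the acyl-CoA synthetases (median 1.14) hold most of the filled points, on both sides of 0, and the 4 electron supply genes lie close to 0 (median 0.02).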

How the data were processed

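RNA of 6 libraries (3 groups of 2, assigned from the sample titles) was quantified with Bowtie2 2.2.9 and RSEM 1.2.30 on mm10, per the submitters' processing notes; the annotation release was not given in the sources used here. Each deposited expected count of a gene is RSEM's estimate without normalization, in which the authors' run divided shared reads among genes by its model. The authors also deposited TPM, per the file headers, which RSEM derives from those counts by effective length and library total. All 92 spike-in identifiers were at 0 and were left out.

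Expected counts were rounded to whole numbers and fitted with edgeR 4.0.16 in R 4.3.3 (TMM factors of 0.962 to 1.04, filterByExpr by group, quasi-likelihood F test, Benjamini-Hochberg adjustment over 19640 genes, threshold 0.05), with all 6 libraries in 1 fit and 3 residual degrees of freedom. The script was tested on simulated data. The library totals of 40480694 to 63220022 put the limit that a count of 0 allows (3 counts) at 0.0475 to 0.0741 CPM, for counting error only. The replicate pairs differed by more than sampling noise. Alternatives were other size factors, filters, DESeq2 1.42.0, limma 3.58.1 on log2(TPM + 1) and log2(TPM + 0.1), effective length as an offset, summed paralogues, only the groups compared, a replicate block and each library left out. Transcripts were compared with blastn 2.17.0 (at least 90% over 100 bases).

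The members and lists were chosen with earlier results of these data known. All 10 members are named. In each pathway list and comparison, up to 4 genes with the smallest p among those that passed are named, or the 2 of highest mean TPM in a list without any. In the comparison between the knockouts the pathway lists are given as counts.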

Additional observations from a re-analysis of the deposited data

How the results depend on the processing

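With 2 libraries a group, a difference that is small beside the spread between libraries may have gone undetected. In the double knockout against WT, 5 members rose; 3 did with the replicate block, which lost Elovl6 (adjusted p = 0.0565) and Scd1 (0.0611), and of the other named genes Hacd2 (0.0623), Scap (0.0635), Srebf1 (0.0611) and Acsl5 (0.0752), and 2 to 6 with 1 library left out, while the 3 falls became 2 to 4. Against LEF1cKO, 2 rose; 5 did with no filter on low counts and 0 to 6 with 1 library left out, the block lost Fads2 (0.0608), and the 3 falls became 1 when only the groups compared were fitted and 0 to 3 with 1 library left out. Same-numbered libraries did not deviate together (correlations of 0.06 for the double knockout and WT, -0.04 for LEF1cKO and WT and -0.03 for the knockouts). The labels do not say whether the numbers pair libraries, and these correlations, from 2 libraries a group, cannot settle it. In LEF1cKO against WT the sign turned for Elovl3 (-0.003 and -0.064 by limma on log2(TPM + 1) and log2(TPM + 0.1), and -1.83 to 1.40 with 1 library left out) and Scd2 (0.032 and 0.032 by the same fits, and -0.115 to 0.032). With 1 library left out it also turned for Elovl6 (-0.35 to 1.77), Elovl7 (-0.539 to 0.067) and Scd1 (-0.37 to 1.40). The cause was not tested. Log2(TPM + 0.1) moved the median of all genes in the double knockout against WT to 0.13. All genes called in LEF1cKO against WT numbered 118 (37.3% rises), against 626 (58.5%) by DESeq2, 422 (51.2%) with no filter, 80 (32.5%) with the block, and 152 by limma on log2(TPM + 1) (17.8%) and on log2(TPM + 0.1) (23.7%).
Between the knockouts all calls numbered 4952, against 2585 when only the groups compared were fitted and 1 to 5973 with 1 library left out, and in the double knockout against WT 7389, against 1968 to 8333. Of the 10 members' values under the alternatives, 142 kept direction and side of the threshold against WT, 15 lost a call and 5 gained one; between the knockouts these were 137, 18 and 7.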
